A study of Mus musculus with 12 samples.

Results

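The mitochondrial mRNAs and the nuclear-encoded subunits of respiratory complex I were followed in BV2, a mouse microglial cell line that has been immortalized. The members are the 13 protein genes of the mitochondrial genome (symbols beginning with mt-Nd, mt-Co, mt-Atp and mt-Cytb) and the 36 nuclear genes with an Nduf symbol of the a, b, c, s or v series. They were found by symbol alone, 49 genes of 43432 in the tables, and all 49 were among the 12705 genes that had enough counts to be tested. The symbol rule takes in Ndufa4, whose product is now counted as a subunit of complex IV, and leaves out Ndufab1, the acyl carrier protein of complex I.

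Complex I (NADH:ubiquinone oxidoreductase) passes electrons from NADH to ubiquinone and pumps protons across the inner mitochondrial membrane. Its hydrophilic arm consists of the N module, which oxidizes NADH, and the Q module, which reduces ubiquinone, and its membrane arm has a proximal and a distal part. The mitochondrial genome encodes the 7 core subunits of the membrane arm, and also subunits of complexes III, IV and V, and is transcribed by its own polymerase into long precursors that are cut into mRNAs. All other complex I subunits are nuclear genes, so the enzyme is assembled from the products of both genomes. In activated macrophages and microglia, complex I and the respiratory chain are known for their part in the metabolic response to endotoxin.

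Both ginger compounds were tested on cells given lipopolysaccharide (LPS, bacterial endotoxin) at 100 ng/mL 1 h after the compound. The groups were 6-shogaol at 10 µM with LPS, 6-shogaol at 30 µM with LPS, 6-gingerol at 10 µM with LPS, 6-gingerol at 30 µM with LPS, LPS alone and untreated cells. The compounds differ by a molecule of water: loss of the β-hydroxyl of 6-gingerol leaves the α,β-unsaturated ketone of 6-shogaol. All cells had been moved to serum-free medium before treatment, and the labels do not say how long after LPS they were harvested. Each of the 6 groups held 2 libraries of poly(A)-selected RNA, and no label says that replicates were separate cultures, so p-values reflect the spread of these samples, which may be technical. BV2 is a single immortalized line. Its libraries held the microglial markers Csf1r (288 to 578 CPM) and Itgam (166 to 212 CPM), whereas Tmem119 reached at most 5.92 CPM and P2ry12 at most 0.85 CPM. The 6 neuron markers summed to at most 0.33 CPM in any library.

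The libraries held 16534960 to 21179867 expected counts each, and the mean fragment length implied by the tables ran from 223.0 to 252.3 bases. In bulk RNA, fewer cells of a type and less RNA per cell cannot be told apart, and neither can fewer mitochondrial genomes and fewer transcripts per genome.

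The reads of the mitochondrial mRNAs are divided between the mitochondrial genome and a near-identical stretch of chromosome 1. In the GENCODE M21 annotation of GRCm38, 7 unprocessed pseudogenes lie on the minus strand within chr1:24611535-24616197 (4663 bases), and together they follow chrM:6390-11042 (4653 bases), from the end of mt-Co1 to the middle of mt-Nd4. A single substitution separates mt-Nd3 from its copy Gm28438 over 345 aligned bases (T3C, counted from the first base of mt-Nd3), and another separates mt-Co1 from Gm29216 over 483 (A1066T, counted from the first base of mt-Co1). The copies of mt-Co2, mt-Atp6, mt-Co3, mt-Nd4l and mt-Nd4 had no substitution over the aligned bases. The segments around both substitutions show how little sequence there is to separate a mitochondrial read from a chromosome 1 read (5′ to 3′ in the sense of the gene, from the GENCODE M21 transcripts, the differing base in capitals).
mt-Nd3 (plus strand, chrM:9459-9481): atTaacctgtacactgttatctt
Gm28438 (minus strand, chr1:24613097-24613119): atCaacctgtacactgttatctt
mt-Co1 (plus strand, chrM:6390-6413): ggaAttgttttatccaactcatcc
Gm29216 (minus strand, chr1:24616165-24616188): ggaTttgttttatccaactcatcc

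In the deposited per-library tables, most counts of 4 mitochondrial mRNAs were listed under the copy. Gm28661 held a median of 97.95% of the counts of mt-Co2 plus copy over the 12 libraries (97.32 to 98.58%). Gm10925 held 96.48% of those of mt-Atp6 plus copy (95.24 to 97.54%), and Gm28437 held 95.79% of those of mt-Co3 plus copy (93.07 to 97.21%). Gm28438 held 87.36% of those of mt-Nd3 plus copy (84.5 to 91.95%). The split of mt-Nd4l was uneven between libraries, with 33.18 to 67.12% under Gm10222. mt-Co1 and mt-Nd4 kept nearly all of their counts, with 0.05 to 4.12% of mt-Co1 under Gm29216 and at most 0.07% of mt-Nd4 under Gm28439. The authors' normalized table splits the same reads differently. It lists 68.93 to 85.42% of the mt-Co2 signal and 64.32 to 76.13% of the mt-Co3 signal under the copy. The division therefore depends on the counting, and the level of these mRNAs is given below with the copy added as well as listed. Adding the copies was chosen after the tables had been seen.

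**Figure D1:**
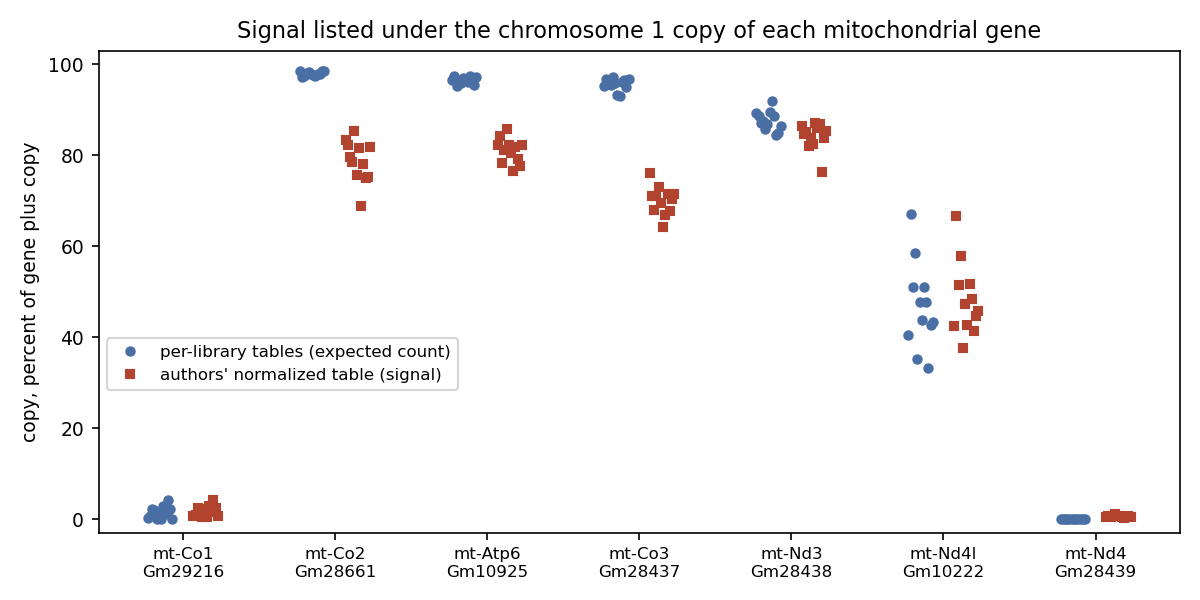
Percent of the value of gene plus copy that is listed under the copy, for 7 mitochondrial mRNAs in 12 libraries (points), in the per-library tables (circles, expected counts) and in the authors' normalized table (squares). The circles of mt-Co2 lie between 97.32 and 98.58%, whereas its squares lie between 68.93 and 85.42%.

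Among the nuclear members, Ndufb4 shares 390 identical bases with Ndufb4c on chromosome 15, which held 25.72% of their joint counts. The other near-identical copy, BC002163 of Ndufs5, held 0.07%. Neighbouring mitochondrial genes also overlap each other. mt-Atp8 and mt-Atp6, which encode small subunits of the ATP synthase, are read from a single bicistronic mRNA and share 43 bases, in capitals here with 10 bases on either side, so reads from this stretch fit both.
mt-Atp8 and mt-Atp6 (plus strand, chrM:7917-7979): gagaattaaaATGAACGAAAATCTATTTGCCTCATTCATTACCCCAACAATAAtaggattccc
The ends of mt-Nd5 and mt-Nd6 overlap by 14 bases on opposite strands. The kit marks strand, but whether the counting used it is not given in the sources used here. Sense and antisense reads there, and elsewhere in mt-Nd6, may therefore not have been separated.

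Mitochondrial mRNA was abundant in every group. With the copies added it made up 7.40 and 8.98% of all counts with 30 µM 6-shogaol, against 8.74 and 8.69% with LPS alone, and it ran from 7.19 to 10.55% over the 12 libraries. In CPM, which here are TMM-scaled, the 6-shogaol libraries summed to 78350 and 76461 at 10 µM and to 74700 and 91361 at 30 µM. The 6-gingerol libraries summed to 106956 and 100457 CPM at 10 µM and to 69687 and 84225 CPM at 30 µM, LPS alone to 89465 and 87544 CPM, and untreated cells to 107056 and 76529 CPM. The libraries with 10 µM 6-gingerol were both above both LPS libraries, and those with 10 µM 6-shogaol and with 30 µM 6-gingerol were all below them. The untreated libraries, 107056 and 76529 CPM, span nearly the whole range of the study.

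The 36 nuclear genes summed to far less and varied less. With 6-shogaol they gave 3632 and 3439 CPM at 10 µM and 4268 and 3957 CPM at 30 µM. The 6-gingerol libraries gave 4014 and 3655 CPM at 10 µM and 3430 and 3782 CPM at 30 µM, LPS alone 4043 and 3688 CPM, and untreated cells 4324 and 3745 CPM. Only the 10 µM 6-shogaol libraries were both outside the LPS pair, below it. The ratio of mitochondrial to nuclear sums was 17.5 and 23.1 with 30 µM 6-shogaol, 26.6 and 27.5 with 10 µM 6-gingerol and 22.1 and 23.7 with LPS. The mean log2 change of the mitochondrial sum with 30 µM 6-shogaol against LPS was 0.13 as listed and -0.09 with the copies added. Its direction therefore turned with the counting. On the deposited TPM it was -0.17, but the largest term of that sum is mt-Atp8, whose TPM is poorly defined. The mean TPM of mt-Atp8 was 50499 with 30 µM 6-shogaol and 69888 with LPS.

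**Figure D2:**
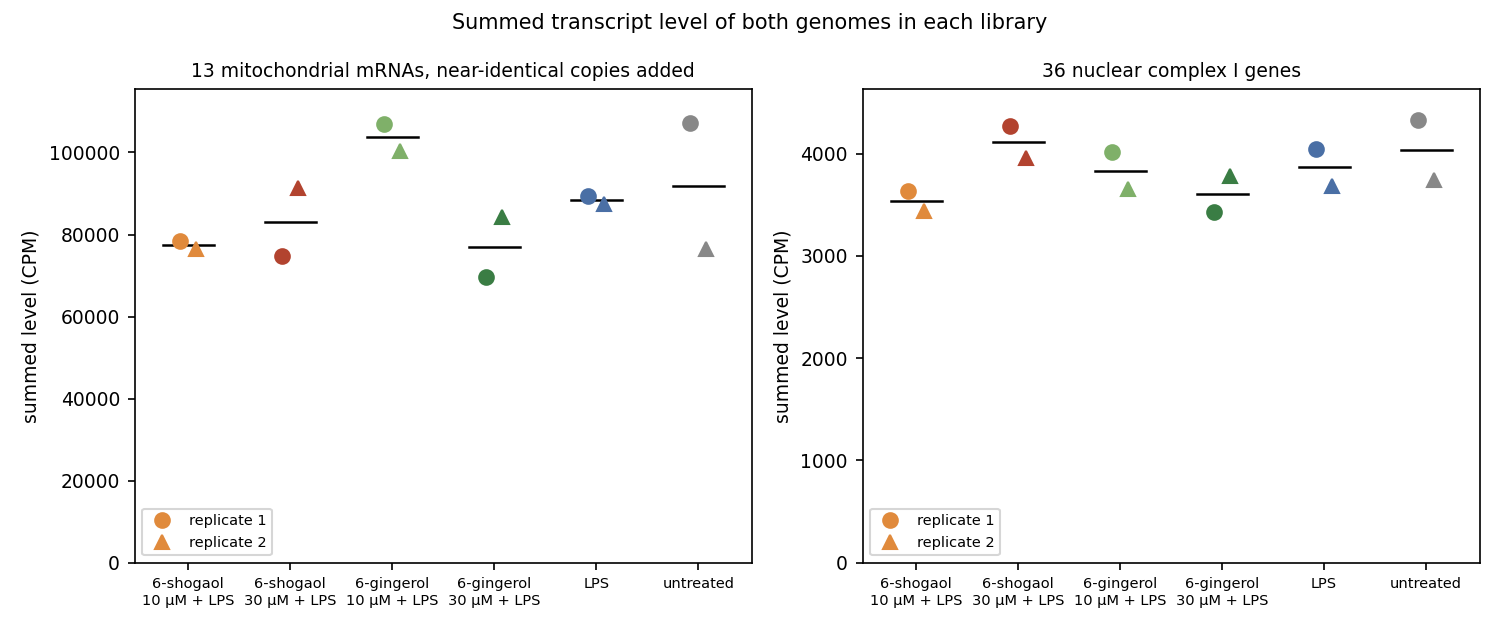
Summed level in CPM of the 13 mitochondrial mRNAs with their near-identical copies (left) and of the 36 nuclear complex I genes (right), by group. Circles are replicate 1, triangles replicate 2 and bars the mean of both. The untreated circle stands at 107056 CPM and the untreated triangle at 76529 CPM.

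Replicates of a group differed most in untreated cells. There 12 of the 13 mitochondrial mRNAs (copies added) and 31 of the 36 nuclear genes were higher in replicate 1, with median absolute log2 differences of 0.52 and 0.21. Over the 4114 genes at 50 CPM or more, the median difference between the untreated replicates was 0.19. In the pair with 30 µM 6-shogaol the genomes went opposite ways, since 1 of 13 mitochondrial mRNAs but 29 of 36 nuclear genes were higher in replicate 1. In the pair with 30 µM 6-gingerol, 0 of 13 and 3 of 36 were higher in replicate 1. At 30 µM the mean fragment length was 235.6 and 244.1 bases for 6-shogaol and 249.2 and 223.1 bases for 6-gingerol. It was 237.0 and 223.0 bases for LPS and 226.7 and 247.8 bases for untreated cells, and its part in these differences was not tested. The nuclear members with the largest mean replicate difference were Ndufb3, with a log2 difference of 0.24, Ndufb6 with 0.23 and Ndufa5 with 0.22. Ndufb3 and Ndufb6 are accessory subunits of the distal membrane arm, and Ndufa5 belongs to the Q module.

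Compared per length, the nuclear members ranged over more than an order of magnitude. Mean TPM over all libraries was highest for Ndufa4 (588), Ndufc1 (475) and Ndufb8 (453), and lowest for Ndufa11 (16.1), Ndufs1 (86.0) and Ndufs3 (88.5). Ndufc1 and Ndufa11 are accessory subunits of the membrane arm, Ndufb8 lies in its distal part, Ndufs1 is the largest core subunit of the N module and Ndufs3 is a core subunit of the Q module. The median of the 36 means was 171.2 TPM. Of the mitochondrial mRNAs, mt-Co1 averaged 27315 TPM and mt-Co2 31404 TPM with copies added. mt-Nd1 averaged 6924 TPM, mt-Cytb 4762 TPM, mt-Nd4 3314 TPM with its copy, mt-Nd2 3176 TPM, mt-Nd6 2156 TPM and mt-Nd5 2007 TPM. The listed TPM of mt-Atp8 was the highest, 71369, but its gene is shorter than the mean fragment, so its effective length and with it the TPM is poorly defined.

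With 30 µM 6-shogaol, 5 nuclear members were higher than with LPS alone by edgeR's quasi-likelihood test, and none was lower. They were Ndufb3, Ndufb8 and Ndufb10 of the distal membrane arm, Ndufs1, which carries iron-sulfur clusters in the N module, and Ndufa4. Over all genes tested 25.4% were called in this comparison, 12.6% higher and 12.8% lower. The share of members called higher, 5 of 36, was near the share of all genes called higher. In either direction together, members were called less often than all genes. The median log2 change of the 36 was 0.05, beside 0.00 for all genes tested, and 24 of 36 were above 0. By part of the enzyme, calls fell on 1 of 10 N module genes, 0 of 5 Q module genes, 0 of 10 proximal and 3 of 10 distal arm genes (1 further distal arm gene on the list, Ndufb1, was not matched by symbol).

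Ndufb3 stood at 134.0 and 146.8 CPM with 30 µM 6-shogaol, against 89.4 and 88.0 CPM with LPS. All other libraries of the study lay between 72.0 and 115.8 CPM, so the 30 µM 6-shogaol pair was above every one of them. Its log2 fold change was 0.66 ± 0.15 (SE; edgeR adjusted p = 0.00495), and the call held when any of the 4 libraries was left out. Ndufa4 stood at 198.5 and 201.6 CPM with 30 µM 6-shogaol, against 155.5 and 137.6 CPM with LPS. Its change was 0.45 (edgeR adjusted p = 0.0339), and the call was lost whichever of the 4 libraries was left out. The first untreated library, at 192.0 CPM, came close to the 6-shogaol pair.

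Ndufb10 stood at 131.7 and 114.6 CPM with 30 µM 6-shogaol, against 97.4 and 90.7 CPM with LPS (log2 change 0.39, edgeR adjusted p = 0.0112). Ndufs1 stood at 218.2 and 245.2 CPM with 30 µM 6-shogaol, against 186.3 and 169.8 CPM with LPS (0.38, edgeR adjusted p = 0.0314). Ndufb8 stood at 258.4 and 224.2 CPM with 30 µM 6-shogaol, against 194.1 and 187.9 CPM with LPS (0.34, edgeR adjusted p = 0.0315). The 6-shogaol and LPS pairs did not overlap for any of these genes, which were picked by their calls on the same libraries. Untreated cells had 123.7 and 117.6 CPM of Ndufb10, within the 6-shogaol range. They had 229.3 and 179.0 CPM of Ndufs1, overlapping it, and 194.1 and 174.2 CPM of Ndufb8, below it. Ndufb10 lost its call without LPS replicate 2 or 6-shogaol replicate 1. Ndufb8 lost it without either LPS library or 6-shogaol replicate 1, and Ndufs1 without either LPS library or 6-shogaol replicate 2, with adjusted p up to 0.239 for Ndufb8 and 0.208 for Ndufs1.

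**Figure D3:**
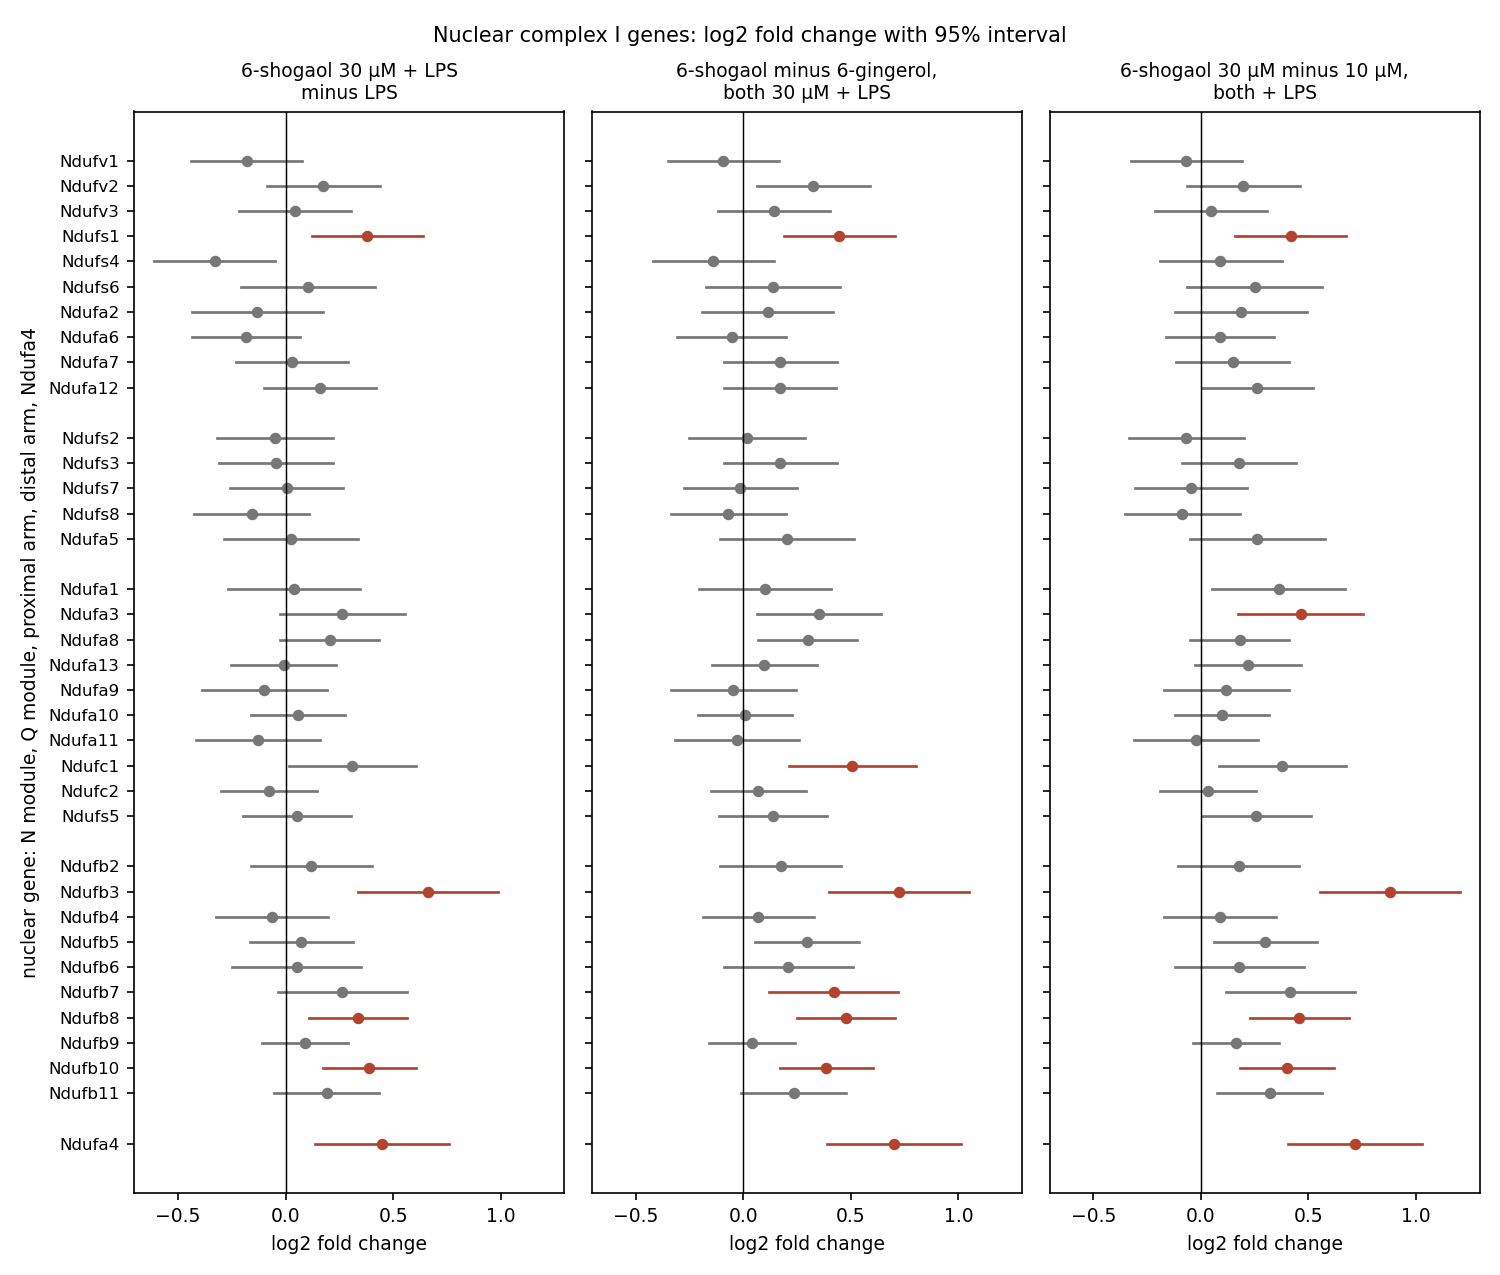
Log2 fold change with its 95% interval of the 36 nuclear genes in the comparisons that involve 30 µM 6-shogaol, ordered from top to bottom as N module, Q module, proximal arm, distal arm and Ndufa4. Red marks genes higher at an edgeR adjusted p under 0.05 and grey those not called. Ndufb3 is red in all 3 panels, at 0.66, 0.72 and 0.88, and no Q module gene is red.

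Among the mitochondrial mRNAs, 30 µM 6-shogaol lowered mt-Nd3 relative to LPS and left the others uncalled as listed. mt-Nd3, the core subunit at the junction of both arms, had 43.8 and 40.8 CPM as listed with 30 µM 6-shogaol, against 62.3 and 70.9 CPM with LPS. With its copy it had 340.4 and 328.3 CPM, against 552.8 and 457.3 CPM with LPS. The log2 change was -0.66 as listed (edgeR adjusted p = 0.00353, background 12.8% lower) and -0.60 with the copy (edgeR adjusted p = 0.00416). The listed call held without any one of the 4 libraries. With 30 µM 6-gingerol against LPS, mt-Nd3 changed by -0.68 as listed and by -0.17 with its copy, and was not called. With copies added, mt-Atp6 was also lower, at 4803 and 6141 CPM with 30 µM 6-shogaol, against 8343 and 9364 CPM with LPS (-0.69, edgeR adjusted p = 0.0259). As listed, mt-Atp6 had a change of -0.10. That value rests on the few percent of its counts that are not under the copy.

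The other 11 mitochondrial mRNAs were not called with copies added, but their changes ran in both directions. They were 0.32 for mt-Nd5, 0.28 for mt-Nd6 and 0.28 for mt-Co1, -0.03 for mt-Nd4, -0.13 for mt-Nd4l, -0.23 for mt-Nd1, -0.37 for mt-Nd2, -0.43 for mt-Co3, -0.44 for mt-Co2, -0.48 for mt-Cytb and -0.64 for mt-Atp8. The interval of mt-Co1 reached from -0.08 to 0.64 and that of mt-Nd2 from -0.68 to -0.07. The median over the 13 was -0.37, beside 0.00 for all genes tested.

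Within a library, the make-up of the mitochondrial mRNA pool does not depend on how libraries are scaled to each other, and it set the 30 µM 6-shogaol pair apart. The shares below, with copies added, were looked at after the changes had been seen and are a description with no test. mt-Co1, the catalytic subunit of cytochrome c oxidase, made up 48.96 and 47.83% of the pool with 30 µM 6-shogaol, against 37.80 and 36.98% with LPS. In the 10 libraries outside the 30 µM 6-shogaol pair it ranged from 29.31 to 40.25%. mt-Nd5, a proton-pumping subunit of complex I, made up 4.06 and 4.37% with 30 µM 6-shogaol, against 3.08 and 3.31% with LPS. Untreated cells, at 4.11 and 4.10%, were within the 6-shogaol range for this mRNA.

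The shares of 8 mRNAs lay below the LPS pair with 30 µM 6-shogaol, 3 lay above it (mt-Co1, mt-Nd5 and mt-Nd6) and 2 overlapped. LPS against untreated gave 8 below and 1 above, and 10 µM 6-shogaol against LPS gave 1 below and 6 above. For 6-gingerol against LPS there were 0 below and 4 above at 10 µM, and all 13 overlapped at 30 µM. The shares of a library have a fixed total, so a higher share of mt-Co1 lowers the others. These counts have no share of all genes beside them. With 2 libraries a group, pairs can also fail to overlap by chance, so the counts are a description only. mt-Nd2, another proton-pumping subunit, made up 2.19 and 2.17% with 30 µM 6-shogaol, against 2.66 and 2.63% with LPS and at least 2.63% in the other 10 libraries. mt-Atp6 made up 6.43 and 6.72% with 30 µM 6-shogaol, against 9.33 and 10.70% with LPS. mt-Cytb, the mitochondrially encoded subunit of complex III, made up 3.31 and 3.58% with 30 µM 6-shogaol, against 4.39 and 4.64% with LPS. For each mt-Nd2 count there were 11.1 and 12.4 mt-Co1 counts with 6-shogaol at 10 µM and 22.4 and 22.0 at 30 µM. This ratio was 14.3 and 11.3 with 6-gingerol at 10 µM, 13.7 and 14.4 at 30 µM, 14.2 and 14.1 with LPS alone, and 8.53 and 9.30 in untreated cells. The mt-Nd5 to mt-Cytb ratio was 1.22 and 1.22 with 30 µM 6-shogaol and between 0.58 and 0.74 in the other 10 libraries. Both genes of the second ratio have no near-identical copy, so it does not depend on the split of reads. mt-Co1 has 1545 bases, mt-Nd5 1824, mt-Cytb 1144, mt-Nd2 1038, mt-Atp6 681 and mt-Nd6 519, and the part of length or fragmentation in these shares was not tested.

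**Figure D4:**
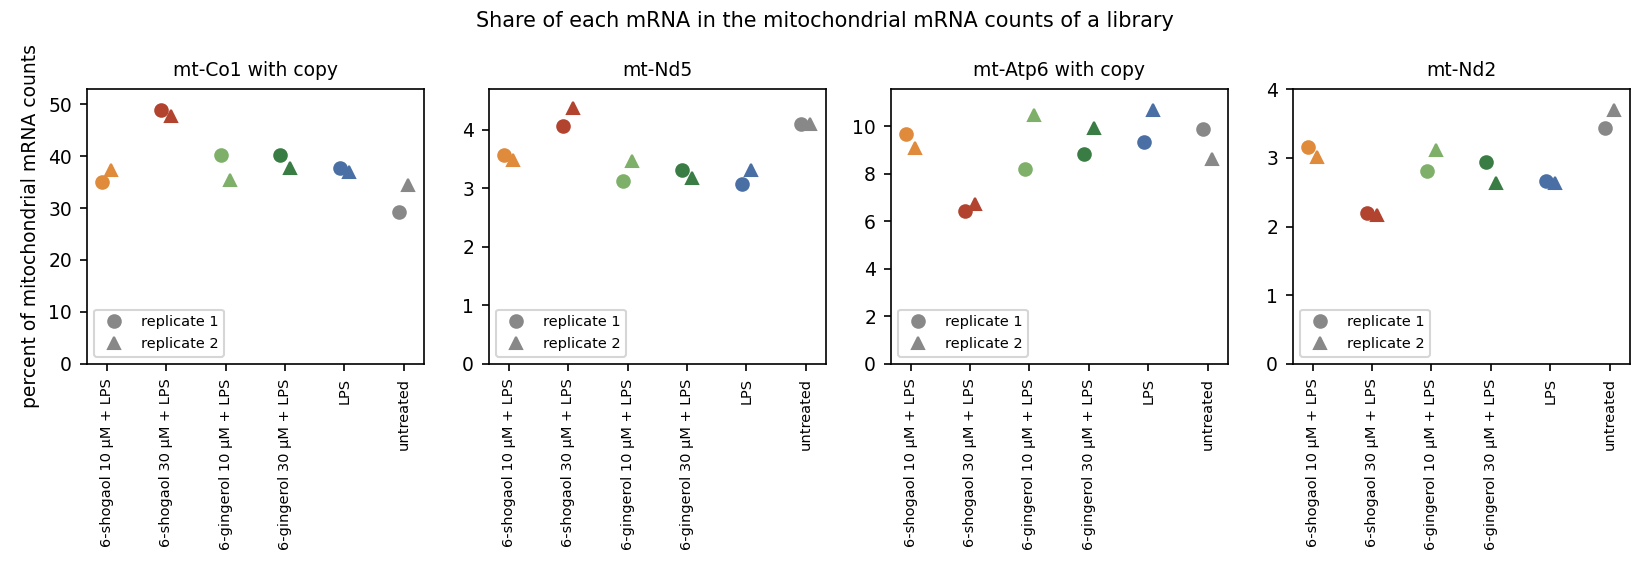
Percent of the mitochondrial mRNA counts of a library, copies added, taken by mt-Co1, mt-Nd5, mt-Atp6 and mt-Nd2 in each group (circles replicate 1, triangles replicate 2). With 30 µM 6-shogaol mt-Co1 stands at 48.96 and 47.83%, above the 29.31 to 40.25% of the other libraries, and mt-Nd2 at 2.19 and 2.17%, below them.

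The compounds were compared directly at matched doses, which made 2 pairs. At 30 µM, 6-shogaol gave higher levels than 6-gingerol for 7 nuclear members (Ndufb3, Ndufa4, Ndufc1, Ndufb8, Ndufs1, Ndufb7 and Ndufb10), and lower levels for none. The background was 25% of genes called, 12.5% higher and 12.4% lower. The median change of the 36 was 0.16, beside 0.00 for all genes tested, and 29 of 36 were above 0. Ndufb3 had 134.0 and 146.8 CPM with 6-shogaol, against 74.6 and 95.4 CPM with 6-gingerol, a log2 difference of 0.72 ± 0.15 (SE; edgeR adjusted p = 0.00286). Ndufa4 had 198.5 and 201.6 CPM with 6-shogaol, against 109.4 and 136.9 CPM with 6-gingerol (0.70, edgeR adjusted p = 0.00271). Both calls held without any one of the 4 libraries.

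Ndufc1 had 92.2 and 71.6 CPM with 30 µM 6-shogaol, against 56.0 and 59.2 CPM with 30 µM 6-gingerol (0.51, edgeR adjusted p = 0.0149). Ndufb7, an accessory subunit on the outer face of the distal arm, had 91.9 and 74.6 CPM with 6-shogaol, against 62.1 and 62.2 CPM with 6-gingerol (0.42, edgeR adjusted p = 0.0401). The differences of Ndufb8 (0.48), Ndufs1 (0.45) and Ndufb10 (0.39) had adjusted p of 0.00453, 0.0141 and 0.0119 by edgeR. Without 6-gingerol replicate 1, the library with the lower nuclear sum of its pair, 2 of these 7 nuclear calls were left. Without 6-shogaol replicate 1, Ndufb7, Ndufb8, Ndufb10 and Ndufc1 were lost. Ndufs1 was lost without 6-shogaol replicate 2, and Ndufb7 without 6-gingerol replicate 2.

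mt-Nd5 had 3030 and 3997 CPM with 30 µM 6-shogaol, against 2314 and 2676 CPM with 30 µM 6-gingerol (0.49, edgeR adjusted p = 0.0382). mt-Nd6, the complex I mRNA read from the other strand of the genome, had 562.8 and 785.3 CPM with 6-shogaol, against 463.5 and 514.7 CPM with 6-gingerol (0.46, edgeR adjusted p = 0.0478). Each of these calls was lost without either 6-gingerol library and without 6-shogaol replicate 2, the library with the larger mitochondrial sum. For each mt-Nd6 count there were 5.38 and 5.09 mt-Nd5 counts with 30 µM 6-shogaol and 4.99 and 5.20 with 30 µM 6-gingerol. Over the 12 libraries this ratio ran only from 4.72 to 5.96. Since the use of strand in the counting is not given, the calls of mt-Nd5 and mt-Nd6 may not be independent, which was not tested. mt-Nd3 differed by 0.03 as listed and by -0.43 with its copy, where it was called (edgeR adjusted p = 0.029). With copies added the background was 24.9%.

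At 10 µM no member was called between the compounds by edgeR or, for the nuclear members, by DESeq2, which called 2 mitochondrial mRNAs lower with 6-shogaol. The background was 0.638% of genes by edgeR and 1.56% by DESeq2. At an unadjusted p under 0.05, edgeR gave 5 mitochondrial and 3 nuclear members, beside 14.6% of all genes tested. All 13 mitochondrial mRNAs were lower with 10 µM 6-shogaol than with 10 µM 6-gingerol as listed, and 12 of 13 with copies added. The difference was -0.49 for mt-Co1 with its copy (95% interval -0.85 to -0.13) and -0.54 for mt-Nd4 with its copy (-0.94 to -0.14). For Ndufb3 it was -0.15 (-0.47 to 0.18) and for Ndufa4 -0.08 (-0.39 to 0.24). The 95% intervals of the 36 nuclear members reached from -0.67 to 0.37.

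Between 30 and 10 µM of 6-shogaol, 6 nuclear members were higher at the higher dose and none was lower (background 19.4% called, 9.85% higher and 9.54% lower). They were Ndufb3 (0.88), Ndufa4 (0.72), Ndufa3 (0.46), Ndufb8 (0.46), Ndufs1 (0.42) and Ndufb10 (0.40). Ndufa3, an accessory subunit of the proximal arm, had 42.7 and 36.7 CPM at 10 µM and 59.2 and 50.2 CPM at 30 µM (edgeR adjusted p = 0.0269). Of the mitochondrial mRNAs, mt-Co1 was higher at 30 µM by 0.49 as listed (edgeR adjusted p = 0.0338) and 0.52 with its copy (edgeR adjusted p = 0.0408). mt-Nd3 with its copy had 720.6 and 609.3 CPM at 10 µM and 340.4 and 328.3 CPM at 30 µM (-0.99, edgeR adjusted p = 0.000133), the largest change of any mitochondrial mRNA with copies added in the 9 comparisons. The call of mt-Co1 was lost without either 10 µM library and without replicate 2 at 30 µM. Ndufa3 and Ndufb10 lost theirs without either 10 µM library or replicate 1 at 30 µM, Ndufs1 without either 10 µM library or replicate 2 at 30 µM, and Ndufb8 without replicate 2 at 10 µM or replicate 1 at 30 µM. Ndufb3, Ndufa4 and mt-Nd3 as listed kept theirs whichever of the 4 libraries was left out.

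**Figure D5:**
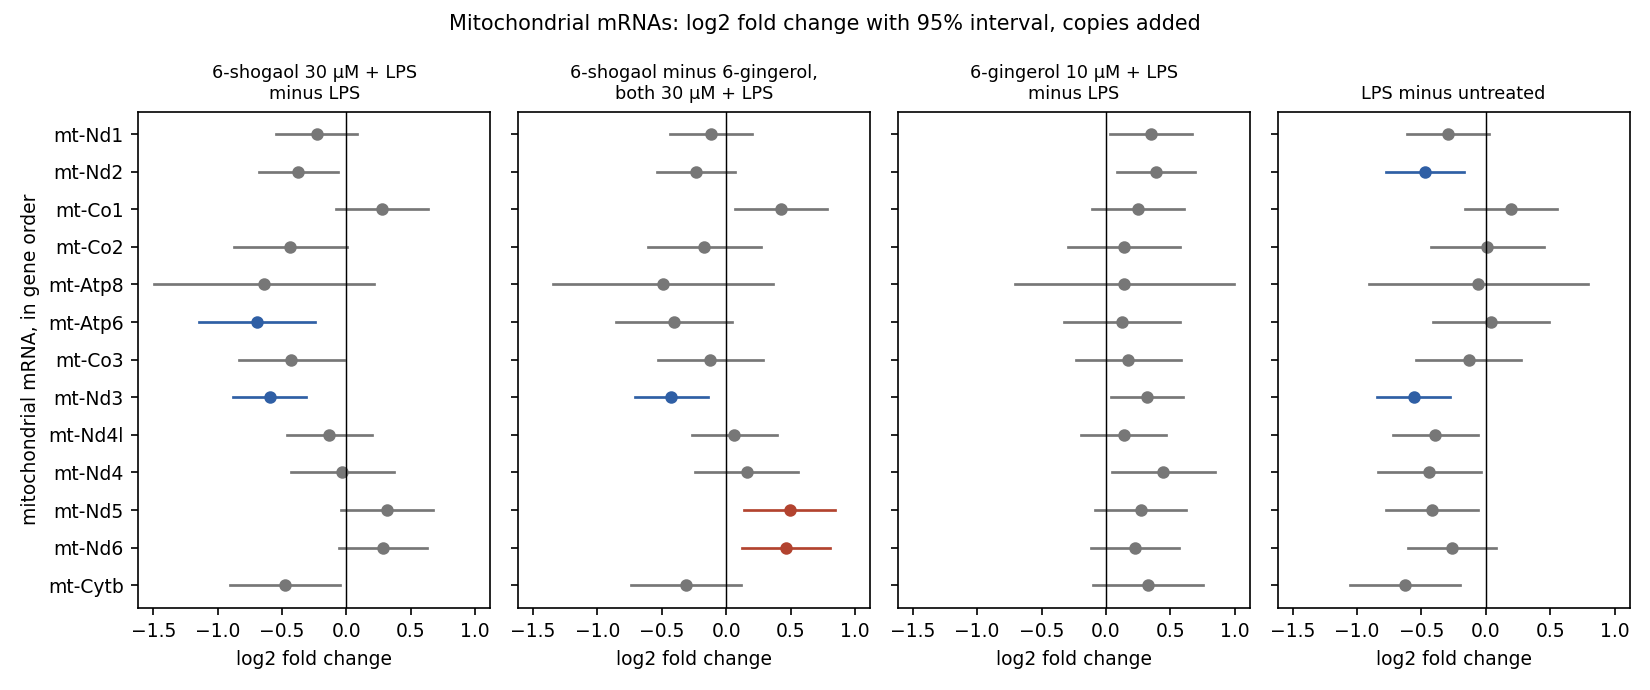
Log2 fold change with its 95% interval of the 13 mitochondrial mRNAs, copies added, in gene order, for 4 comparisons (one a panel). Red marks an mRNA higher and blue one lower at an edgeR adjusted p under 0.05, and grey one not called. With 10 µM 6-gingerol all 13 points lie above 0 and none is called, whereas the points of 30 µM 6-shogaol minus LPS spread from -0.69 for mt-Atp6 to 0.32 for mt-Nd5.

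No member was called with 6-gingerol against LPS by edgeR at either dose (background 0% of genes at 10 µM and 0% at 30 µM). At an unadjusted p under 0.05 there were 4 mitochondrial and 1 nuclear member at 10 µM, beside 1.91% of all genes tested, and 1 mitochondrial and 0 nuclear members at 30 µM, beside 1.49%. The mitochondrial mRNA under that unadjusted p at 30 µM was mt-Nd3 as listed, at -0.68 (46.5 and 36.6 CPM). With its copy mt-Nd3 changed by -0.17. DESeq2 called 1 mitochondrial mRNA, lower, at 30 µM (background 0.0157%) and no member at 10 µM (background 0%). At 10 µM the 13 mitochondrial mRNAs were all above LPS (median 0.25 with copies added), with or without copies. At 30 µM all 13 were below LPS with copies added (median -0.18), but 11 of 13 as listed, where mt-Co3 was at 0.61 and mt-Atp6 at 0.04. Every adjusted p by edgeR was 1. The nuclear members had medians of -0.03 at 10 µM and -0.10 at 30 µM. These comparisons share the LPS libraries. Between 30 and 10 µM of 6-gingerol, mt-Nd3 was the only gene of 12705 called as listed (background 0.00787%), at -1.05 (edgeR adjusted p = 0.0315). That call was lost without 10 µM replicate 1 or 30 µM replicate 2, with an edgeR adjusted p of up to 0.828. With its copy the change was -0.49 and it was not called (edgeR adjusted p = 0.959), since mt-Nd3 with its copy had 696.5 and 563.4 CPM at 10 µM and 443.8 and 454.9 CPM at 30 µM.

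With 10 µM 6-shogaol no member was called against LPS by edgeR (background 0.638%) or DESeq2 (background 0.945%). At an unadjusted p under 0.05, edgeR gave 0 mitochondrial and 4 nuclear members, beside 10.8% of all genes tested. The nuclear changes leaned down, with a median of -0.12 and 33 of 36 below 0, although the summed nuclear level changed by -0.13 in CPM and by 0.03 on the deposited TPM. mt-Nd3 with its copy changed by 0.40 (edgeR adjusted p = 0.288). The lowest was Ndufs4, an accessory subunit of the N module, at -0.42 (95% interval -0.70 to -0.14, edgeR adjusted p = 0.254).

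LPS alone lowered 2 mitochondrial mRNAs and 1 nuclear member against untreated cells and raised none (background 11.8% of genes called, 4.16% lower and 7.66% higher). mt-Nd3 with its copy had 552.8 and 457.3 CPM with LPS, against 693.9 and 794.1 CPM untreated (-0.56, edgeR adjusted p = 0.0106, and -0.67 as listed, edgeR adjusted p = 0.00422). mt-Nd2 had 2380 and 2305 CPM with LPS, against 3678 and 2829 CPM untreated (-0.47, edgeR adjusted p = 0.0388). Ndufb10 had 97.4 and 90.7 CPM with LPS, against 123.7 and 117.6 CPM untreated (-0.36, edgeR adjusted p = 0.0303). mt-Nd2 and Ndufb10 lost their calls without untreated replicate 1 or either LPS library, and mt-Nd3 as listed without LPS replicate 1. mt-Cytb had 3925 and 4064 CPM with LPS, against 7649 and 4701 CPM untreated, a change of -0.63 that was not called (edgeR adjusted p = 0.052).

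The other respiratory complexes had members called in the same direction as the nuclear complex I genes with 30 µM 6-shogaol against LPS. Called higher were 3 of 10 nuclear complex IV genes (Cox7b 0.69, Cox6b1 0.63, Cox7a2 0.57), 2 of 9 nuclear complex III genes (Uqcr11 0.79, Uqcrh 0.77), 5 of 15 nuclear ATP synthase genes and 1 of 4 complex II genes (Sdhc 0.43). None of these 38 genes was called lower. Over all genes tested 12.6% were called higher in this comparison and 12.8% lower. The ATP synthase genes were Atp5k (0.74), Atp5g3 (0.68), Atp5g1 (0.55), Atp5j2 (0.52) and Atp5h (0.36). Uqcrh, the hinge protein of complex III, had 180.7 and 190.6 CPM with 30 µM 6-shogaol, against 111.1 and 107.0 CPM with LPS. List medians were 0.19 for complex IV, -0.07 for complex III, 0.20 for complex V and 0.21 for complex II. Of 14 assembly factors of complex I, Acad9 was higher (0.61) and Foxred1 lower (-0.32). Against 30 µM 6-gingerol, 4 of 10 complex IV and 2 of 9 complex III genes were higher with 30 µM 6-shogaol. So were 7 of 15 complex V and 1 of 4 complex II genes. Over all genes tested, 12.5% were called higher against 30 µM 6-gingerol and 12.4% lower.

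Of 26 genes that copy the mitochondrial genome or transcribe and mature its RNA, 3 were called higher and 2 lower with 30 µM 6-shogaol against LPS, beside 12.6% of all genes higher and 12.8% lower. Called higher were Polg, the replicative DNA polymerase (0.46), Supv3l1, an RNA helicase of the mitochondrial degradosome (0.40), and Fastkd5, which processes non-canonical precursors (0.35). Called lower were Top1mt, the mitochondrial topoisomerase I (-0.38), and Fastkd1 (-0.33). Polrmt, the mitochondrial RNA polymerase, stood at 19.9 and 16.8 CPM with 30 µM 6-shogaol, against 17.4 and 18.9 CPM with LPS (0.02). Lrpprc, which stabilizes mitochondrial mRNAs, changed by -0.10 and Tfam, which packages and transcribes the genome, by 0.24, and neither was called (edgeR adjusted p = 0.491 and 0.203). Of the chaperones and proteases of the matrix, Hspd1 was higher (0.41), and Lonp1 (-0.57), Clpp (-0.50) and Hspa9 (-0.31) were lower.

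LPS alone lowered 5 of the 26 against untreated cells, beside 4.16% of all genes tested. Polrmt had 17.4 and 18.9 CPM with LPS, against 24.2 and 24.0 CPM untreated (-0.41, edgeR adjusted p = 0.031). Lrpprc had 140.6 and 136.8 CPM with LPS, against 181.6 and 170.4 CPM untreated (-0.34, edgeR adjusted p = 0.0256). Fastkd5 (-0.53), Polg (-0.48) and Twnk, the replicative helicase (-0.30), were also lower, whereas Tfam (-0.17) was not called. Pprc1, a coactivator of mitochondrial biogenesis, was lower (-0.33), and Ppargc1a had at most 0.21 CPM in any library. The 12S ribosomal RNA mt-Rnr1 rose, with 2567 and 2204 CPM with LPS, against 1272 and 1328 CPM untreated (0.88, edgeR adjusted p = 0.000177). These libraries were made from poly(A)-selected RNA, in which ribosomal RNA is only partly retained. Between the compounds at 10 µM, mt-Rnr1 was lower with 6-shogaol, at 1769 and 1466 CPM, than with 6-gingerol, at 2664 and 2501 CPM (-0.68, edgeR adjusted p = 0.02). The other mitochondrial ribosomal RNA, mt-Rnr2, differed by -0.51 there and was not called (edgeR adjusted p = 0.14).

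Nrf1, which encodes a transcription factor of nuclear respiratory genes, fell with 30 µM 6-shogaol to 22.5 and 22.2 CPM, against 33.2 and 31.1 CPM with LPS (-0.53, edgeR adjusted p = 0.00135). Promoters of 300 bases (250 before to 50 after the start, RefSeq, GRCm38.p6) were found for 32 of the 36 nuclear members and searched on both strands. The NRF1 motif (GCGCA, any base, GCGC) was in 7 of the 32 (21.9%), namely Ndufa5, Ndufa6, Ndufa8, Ndufa11, Ndufb4, Ndufs5 and Ndufs6, and in 4.78% of 27025 promoters of that length. Of these 7 genes, 0 were called as listed by edgeR in any of the 9 comparisons. The part of Nrf1 in the levels of the nuclear members was not tested. An ETS core, CCGGAAG, was in 4 of 32 (12.5%), namely Ndufb6, Ndufb7, Ndufs3 and Ndufs8, and in 9.12% of all. The antioxidant response element (TGAC, any 3 bases, GCA) was in 2.99% of all and a heat shock element (GAA, any 2 bases, TTC, any 2 bases, GAA) in 0.53% of all, and each was in 0 of 32. The promoter of Ndufb3, the nuclear member with the largest change, is shown beside that of Ndufa8, which was not called, with a motif match in capitals (5′ to 3′ in the sense of the gene).
Ndufb3 (plus strand, chr1:58586147-58586446): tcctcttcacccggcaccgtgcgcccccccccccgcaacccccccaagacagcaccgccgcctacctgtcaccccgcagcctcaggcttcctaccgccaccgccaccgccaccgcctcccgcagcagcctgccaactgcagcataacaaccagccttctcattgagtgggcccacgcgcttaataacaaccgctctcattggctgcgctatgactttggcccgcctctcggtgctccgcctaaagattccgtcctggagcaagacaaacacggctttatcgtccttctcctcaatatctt
Ndufa8 (minus strand, chr2:36049289-36049588): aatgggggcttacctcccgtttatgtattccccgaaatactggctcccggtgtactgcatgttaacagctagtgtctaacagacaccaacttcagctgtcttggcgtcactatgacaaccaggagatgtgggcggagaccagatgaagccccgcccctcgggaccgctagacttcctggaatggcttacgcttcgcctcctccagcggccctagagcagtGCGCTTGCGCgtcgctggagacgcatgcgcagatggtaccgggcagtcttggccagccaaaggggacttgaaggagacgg
The capitals in Ndufa8 mark the NRF1 motif, which reads on the other strand. A match is a description and not a site in use.

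The 12 microglial markers summed to 2189 to 2325 CPM with 30 µM 6-shogaol, 2256 to 2293 CPM with LPS and 2159 to 2203 CPM in untreated cells, and with 30 µM 6-shogaol against LPS Aif1 (-0.63) and Csf1r (-0.62) were lower and Trem2 (0.50) and Tyrobp (0.47) higher. The 6 fibroblast and endothelial markers summed to 0.43 to 0.51 CPM with 30 µM 6-shogaol, 2.0 to 2.38 CPM with LPS and 0.31 to 0.51 CPM in untreated cells, and 2 of them were at 0 in all libraries. The 6 astrocyte markers summed to 8.73 to 10.19 CPM with 30 µM 6-shogaol, 15.8 to 16.82 CPM with LPS and 6.09 to 6.10 CPM in untreated cells. Of these, 1 was at 1 CPM or more, Gja1, which was lower with 30 µM 6-shogaol against LPS (-0.79, edgeR adjusted p = 0.00193) and higher with LPS against untreated (1.42, edgeR adjusted p = 1.81e-05). The 6 oligodendrocyte markers summed to 1.10 to 1.58 CPM with 30 µM 6-shogaol, 2.72 to 3.19 CPM with LPS and 1.54 to 2.19 CPM in untreated cells. The part of these markers in the results above was not tested.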

How the data were processed

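Per the labels, stranded poly(A) RNA libraries were read in paired-end mode, and each library has a gene table whose columns, per the file headers, are those of RSEM. Their expected count, the authors' estimate of reads per gene, of which 7.03% were not whole, was rounded and tested. The TPM deposited by the authors was used only to compare genes per length, and the gene and effective length per the file headers gave the mean fragment length. A second table deposited by the authors holds a normalized signal whose normalization is not stated. The submitters' processing notes name Trimmomatic 0.39, STAR 2.7.11b, RSEM 1.3.3, DESeq2 1.44.0 and the build GRCm38, with no role or order. The annotation release is not given in the sources used here, and 97.8% of gene identifiers matched a symbol in GENCODE M21.

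All 12 libraries were fitted with 6 group means in edgeR 4.0.16 (R 4.3.3), after filterByExpr (minimum count 10) and TMM scaling, with the quasi-likelihood F test. Calls needed a Benjamini-Hochberg adjusted p below 0.05, adjusted over all genes tested in each of 9 comparisons. The fit left 6 residual degrees of freedom, with a common biological coefficient of variation of 9.45%. The code was tested on simulated data. Copies were transcripts matching a member at 99% identity or more over at least 80% of their length. Alternatives were DESeq2 1.42.0, library totals, scaling from genes outside the mitochondrial genome, no filter, the compared groups alone, a replicate block, fragment length as a covariate, leaving out each library, and TPM sums. Added after seeing the data were the summed copies and limma-trend (limma 3.58.1) on the authors' log2 of signal plus 1.

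Members and gene lists were chosen with earlier results of these data known. Named genes were all mitochondrial mRNAs, nuclear members called, the 3 with the highest and the 3 with the lowest TPM, the 3 with the largest replicate difference, up to 4 called per list and direction, and Polrmt, Tfam, Lrpprc and Ppargc1a. Within a library the ratios and shares of mRNAs, and the fifth ATP synthase gene, were chosen after their values were seen.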

Additional observations from a re-analysis of the deposited data

Results flagged for a closer look

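Both compounds were set against the same LPS libraries, so their difference at 30 µM was tested directly, and 9 members differed between 6-shogaol and 6-gingerol by edgeR's quasi-likelihood test with Benjamini-Hochberg adjustment, all of them higher with 6-shogaol. Over all genes tested 25% were called in this comparison, 12.5% higher. The log2 difference, 6-shogaol over 6-gingerol, was 0.72 for Ndufb3, 0.70 for Ndufa4, 0.51 for Ndufc1, 0.48 for Ndufb8, 0.45 for Ndufs1, 0.42 for Ndufb7 and 0.39 for Ndufb10 among the nuclear genes. It was 0.49 for mt-Nd5 and 0.46 for mt-Nd6 among the mitochondrial mRNAs, whose calls may not be independent, as given above. Both libraries with 6-shogaol were above both with 6-gingerol for each of the 9. That adds no support, since the 9 were picked by their calls on these same libraries. With copies added, mt-Nd3 was called lower with 6-shogaol, as given above. Which library of a pair is outlying cannot be told with 2 libraries. Leaving out each library in turn gave log2 differences of 0.554 to 0.914 for Ndufb3 and 0.545 to 0.872 for Ndufa4. They were 0.263 to 0.565 for Ndufb7, 0.282 to 0.680 for mt-Nd5 and 0.205 to 0.683 for mt-Nd6. The calls lost in this way are given above.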

How the results depend on the processing

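Of 162 counts of called members under alternatives that kept all libraries, 52 mitochondrial and 73 nuclear counts stayed within 1.5 times the reported count. Without the filter on low counts the called mitochondrial mRNAs were 9 for LPS against untreated, 1 and 2 for 6-gingerol at 10 and 30 µM against LPS, 1 and 7 for 6-shogaol at 10 and 30 µM against LPS, 5 and 6 for 6-shogaol against 6-gingerol at 10 and 30 µM, and 9 and 6 between the doses of 6-gingerol and of 6-shogaol. The called nuclear genes were then 2 for LPS against untreated, 1 for 10 µM 6-shogaol against LPS and 1 between the compounds at 10 µM. With library totals in place of TMM, 4 mitochondrial and 2 nuclear members were called for LPS against untreated, and 2, 0 and 4 mitochondrial mRNAs for 30 µM 6-shogaol against LPS and between the doses of 6-gingerol and of 6-shogaol. DESeq2 called 2 mitochondrial mRNAs for 30 µM 6-shogaol against LPS, 1 for 30 µM 6-gingerol against LPS and 2 between the compounds at 10 µM. Fitting the compared groups alone gave 1 mitochondrial and 0 nuclear calls for LPS against untreated, 1 mitochondrial for 30 µM 6-gingerol and 6 for 30 µM 6-shogaol against LPS, 5 nuclear for 10 µM 6-shogaol against LPS, and 6 mitochondrial and 12 nuclear between the 6-shogaol doses. Fragment length as a covariate gave 4 mitochondrial calls between the 6-shogaol doses. Summing the copies gave 2 mitochondrial calls for 30 µM 6-shogaol against LPS and 0 between the 6-gingerol doses. Limma-trend on the authors' table gave 1 for LPS against untreated, 2 for 30 µM 6-shogaol against LPS, 1 between the compounds at 30 µM, and 0 and 4 between the doses of 6-gingerol and of 6-shogaol. Over all genes, DESeq2 called 0.0157% for 30 µM 6-gingerol against LPS and 1.56% between the compounds at 10 µM. With copies summed, 25.4% were called for 30 µM 6-shogaol against LPS and 0% between the 6-gingerol doses. For the other alternatives, the replicate block and the fits without a library the share of all genes is not given. Those counts of members therefore have no background beside them. The causes were not tested.

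The labels do not say that replicate numbers mark a shared day or culture. The deviations of same-numbered libraries had correlations of -0.825 to 0.561 over 15 pairs of groups. The median was 0.165, and 10 pairs were above 0.1. Since the labels name no pairing and the sign varied, the numbers were not taken as pairs. A replicate block gave 2 nuclear calls for LPS against untreated and 1 mitochondrial call between the compounds at 30 µM, and moved no other count of calls by over 1.5 times.

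Leaving out each library in turn, which leaves a group with 1 library assumed to vary like the others, gave 0 to 5 mitochondrial and 0 to 2 nuclear calls for LPS against untreated, 1 to 4 nuclear calls for 30 µM 6-shogaol against LPS, 0 to 2 mitochondrial and 2 to 7 nuclear calls between the compounds at 30 µM, 1 to 2 and 2 to 7 between the 6-shogaol doses, and 0 to 1 mitochondrial calls between the 6-gingerol doses. The log2 difference of the listed mitochondrial sum then ran from -0.253 to 0.119 for LPS against untreated, from -0.181 to -0.125 for 10 µM and from -0.027 to 0.265 for 30 µM 6-shogaol against LPS, from 0.126 to 0.418 between the 6-shogaol doses, and from -0.544 to -0.351 between the compounds at 10 µM. On the deposited TPM that sum differed by 0.095 and -0.174 for 10 and 30 µM 6-shogaol against LPS, by -0.173 and -0.104 between the compounds at 10 and 30 µM, and by -0.269 between the 6-shogaol doses, and the nuclear sum by 0.029 and 0.251 for 10 and 30 µM 6-shogaol against LPS, by 0.108 between the compounds at 10 µM and by 0.069 between the 6-gingerol doses. The largest term of the mitochondrial TPM sum is mt-Atp8, whose TPM is poorly defined. With copies summed the mitochondrial sum differed by -0.193 and -0.092 for 10 and 30 µM 6-shogaol against LPS. Between the 6-shogaol doses it differed by 0.101. With library totals it differed by -0.080 for 10 µM 6-shogaol against LPS and by -0.338 between the compounds at 10 µM, and the nuclear sum by -0.004 between the compounds at 10 µM and by 0.148 between the 6-shogaol doses. With 2 libraries a group, a missed threshold does not show that levels were alike.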
